A study of Mus musculus with 18 samples.

Results

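The mitochondrial ribosomal protein genes were the 78 of 21938 protein-coding genes of GENCODE vM21 (GRCm38, the assembly that mm10 names) whose symbol starts with Mrpl or Mrps followed by a digit. The rule used symbols and no measured value, although it was set with earlier results of these data known. The peak lists came from chromatin immunoprecipitation with sequencing (ChIP-seq) of 2 histone marks in bone marrow cells of adult C57BL6 mice: H3K4me3, a mark of gene starts, and H3K27ac, found at active enhancers and promoters. The erythroblast (ERY) sort took cells that were Ter119+, CD44+ and low in forward scatter, and the immature megakaryocyte (iMK) sort took CD41+ and CD61+ cells lacking Ter119, Sca1 and cKit. Both sorts also excluded cells bearing CD4, CD8, IL7Ra, CD11b, Ly6g or CD45R, no treatment or altered allele was named, and the study's methods give the mice as male. Each mark had 2 ERY and 2 iMK libraries, 8 in all. Replicates 1 and 2 are names only, and replicates could come from different groups of mice or from separate sorted portions of the same mice, so a p-value here speaks only of variation among such libraries.

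The sort labels were checked against marker genes. Of 7 erythroid markers, 5 to 7 had a promoter peak in the ERY libraries and 1 or 2 in the libraries labelled iMK. Of 9 megakaryocyte markers, 1 to 3 had one in the libraries labelled iMK, with none for Pf4 or Ppbp, while the ERY libraries had 0 in H3K4me3 and 4 in H3K27ac. Of 10 neutrophil and monocyte markers, the libraries labelled iMK had 4 and 9 in H3K4me3 and 8 and 9 in H3K27ac, including Itgam (CD11b), and the ERY libraries had 0. Of 5 lymphoid markers, Cd3d and Cd79b were called in 3 of the 4 libraries labelled iMK and in no ERY library. The label iMK is used below only as the name of those libraries. The part of this cell makeup in any result below was not tested, and in bulk libraries it cannot be told apart from a difference within 1 cell type.

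Mitochondria keep a small genome that encodes core subunits of the respiratory chain, and these are translated by a dedicated ribosome inside the organelle. All proteins of that ribosome are encoded in the nucleus, made in the cytosol and imported. Some descend from bacterial ribosomal proteins and others were added in the mitochondrial lineage. Erythroblasts depend on mitochondria for haem synthesis and lose them when red cells mature. Mrpl symbols denote the large subunit and Mrps symbols the small subunit, with exceptions: Mrps18a and Mrps30 sit in the large subunit, and Mrps36 is now known as a subunit of the 2-oxoglutarate dehydrogenase complex of the citric acid cycle.

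Promoter sequences are shown for the members with a RefSeq window at the ends of the H3K27ac comparison below: Mrps36 and Mrpl52, with wider peaks in ERY, and Mrpl33 and Mrps14, with wider peaks in iMK. Each is the 250 bases before the RefSeq start (GRCm38.p6), 5′ to 3′ on the strand of the gene. Mrps36 lies at chr13:100744660-100744909 (minus strand), Mrpl52 at chr14:54426659-54426908 (plus), Mrpl33 at chr5:31613701-31613950 (plus) and Mrps14 at chr1:160194965-160195214 (plus). Capitals mark matches, on either strand, to 10 short motifs: CGCATGCG, bound by NRF1, CCGGAAG, bound by ETS factors, AAGATGG, bound by YY1, GGGCGG, the GC box, CCAAT, the box of that name, CACGTG, the E-box, TATAAA, the core of the TATA box, CTCGCGAG, a palindrome of housekeeping promoters, TGACGTCA, the cyclic AMP response element, and AGATAA, bound by GATA factors. A match says only that these letters are present.
Mrps36: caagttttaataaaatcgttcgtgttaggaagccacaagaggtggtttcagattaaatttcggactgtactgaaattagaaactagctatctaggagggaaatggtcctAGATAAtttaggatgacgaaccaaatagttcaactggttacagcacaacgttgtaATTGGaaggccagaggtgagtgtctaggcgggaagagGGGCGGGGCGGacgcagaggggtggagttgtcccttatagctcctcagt
Mrpl52: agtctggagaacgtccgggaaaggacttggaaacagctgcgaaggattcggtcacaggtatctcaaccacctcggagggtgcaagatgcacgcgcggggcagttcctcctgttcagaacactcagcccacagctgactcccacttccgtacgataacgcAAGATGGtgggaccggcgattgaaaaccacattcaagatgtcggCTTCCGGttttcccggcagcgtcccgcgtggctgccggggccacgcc
Mrpl33: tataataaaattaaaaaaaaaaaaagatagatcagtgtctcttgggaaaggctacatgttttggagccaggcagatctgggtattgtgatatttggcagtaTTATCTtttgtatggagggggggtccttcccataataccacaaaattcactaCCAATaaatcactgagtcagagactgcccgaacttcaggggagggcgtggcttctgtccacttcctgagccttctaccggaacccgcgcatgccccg
Mrps14: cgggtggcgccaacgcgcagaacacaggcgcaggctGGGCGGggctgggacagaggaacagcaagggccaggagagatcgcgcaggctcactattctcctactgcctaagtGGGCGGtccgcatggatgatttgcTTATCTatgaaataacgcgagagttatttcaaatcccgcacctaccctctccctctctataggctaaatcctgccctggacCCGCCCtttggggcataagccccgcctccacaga
Mrps36 held 2 overlapping GC boxes, a CCAAT box on the opposite strand and a GATA match. Mrpl52 held an ETS match on the opposite strand and a YY1 match. Mrpl33 held a CCAAT box and, on the opposite strand, a GATA match. Mrps14 held 3 GC boxes, the last of them on the opposite strand, and a GATA match on the opposite strand. GATA matches stood in windows from both ends of the comparison, and whether any motif goes with its direction was not tested. The Mrpl33 window lies at the RefSeq start, while its widest iMK peaks lay at other starts, as given below.

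Mrpl46, of the large subunit, and Mrps11, of the small subunit, are the pair of members that start back to back. Their GENCODE starts are 30 bp apart and their RefSeq starts 42 bp. The plus strand of chr7:78783069-78783150 is shown, from 20 bases past the start of Mrpl46 on the left to 20 bases into Mrps11 on the right, with its GC box in capitals.
Mrpl46 and Mrps11: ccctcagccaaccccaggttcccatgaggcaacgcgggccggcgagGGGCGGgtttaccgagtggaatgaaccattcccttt

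The first question was how many of these genes carried each mark. A promoter was the 1 kb on each side of any annotated transcription start site (TSS), and a library called it where at least 1 bp lay under a deposited peak. In H3K27ac, 77 and 75 of the 78 members were called in ERY replicates 1 and 2, where 41.7% and 39.4% of all genes were. In both iMK replicates all 78 were called, against 47.6% and 49% of all genes. In H3K4me3, 77 and 53 members were called in ERY replicates 1 and 2 (38.6% and 28.8% of all genes), and 56 and 78 in iMK replicates 1 and 2 (35.5% and 52.8%). Every member was called in at least 1 library of each mark. The 8 libraries together called 45 members (24% of all genes). The members were thus called more often than genes at large in each library, and replicates disagreed at more members in H3K4me3 than in H3K27ac.

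**Figure D1:**
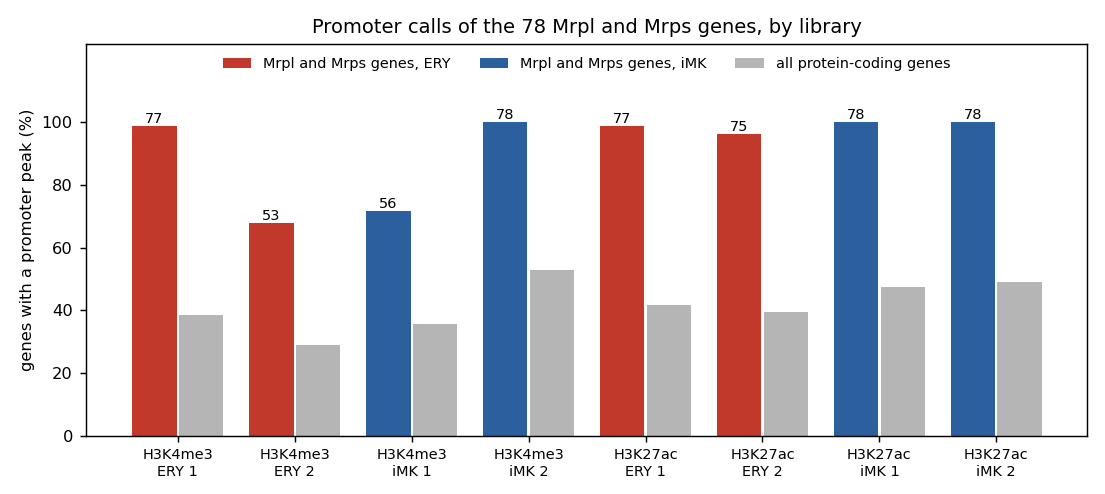
Percent of genes with a promoter peak (vertical axis) in each of the 8 libraries, for the 78 Mrpl and Mrps genes (red ERY, blue iMK, with the number called above the bar) and for all 21938 protein-coding genes (grey). H3K27ac calls sit at 75 to 78 members, and H3K4me3 calls drop to 53 and 56 in ERY replicate 2 and iMK replicate 1.

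A promoter class was shared when all 4 libraries of a mark called it, ERY-only or iMK-only when both libraries of that cell type and neither of the other did, and mixed when replicates differed. In H3K27ac, 75 members were shared (36% of all genes). None was ERY-only. Mrps2 was iMK-only (a class of 8.56% of all genes), and Mrpl23 and Mrps6 were mixed (6.11%). In H3K4me3, 46 members were shared (24.6% of all genes) and 32 were mixed (23.8%). No member was ERY-only (0.378% of all genes), iMK-only (4.89%) or without a call (46.3%). Thus none had a replicated H3K4me3 call in 1 cell type and no call in the other. Such classes were small in all genes too.

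Mrps2 encodes a small-subunit protein with bacterial relatives and starts at chr2:28468066. It had no H3K27ac promoter peak in ERY replicate 1 or 2 and a peak of 600 bp in both iMK replicates. Its H3K4me3 peaks were 800 bp in ERY replicate 1 and 2200 bp in iMK replicate 2, with none in the other 2 libraries. Mrpl23, a protein near the exit of the tunnel for the growing chain in the large subunit, had H3K27ac peaks of 800 bp in ERY replicate 1, 1200 bp in both iMK replicates and none in ERY replicate 2. Mrps6, a small-subunit protein, had 1000 bp in ERY replicate 1, 1600 and 1400 bp in iMK and none in ERY replicate 2, while H3K4me3 was called there in all 4 libraries (1000 and 1000 bp in ERY, 1600 and 2400 bp in iMK). Neither Mrpl23 nor Mrps6 thus had an ERY H3K27ac peak above 1000 bp, and each lacked one in the same ERY library. A promoter with no listed peak may still carry signal below the authors' threshold.

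The 32 members mixed in H3K4me3 were missed mainly in ERY replicate 2 and iMK replicate 1. The 4 lists held 8841, 6275, 7578 and 13222 peaks (ERY 1, ERY 2, iMK 1, iMK 2). Mrpl19, Mrpl22, Mrpl23, Mrpl33, Mrpl34, Mrpl35, Mrpl38, Mrpl39, Mrpl45, Mrpl58, Mrps14, Mrps15, Mrps2 and Mrps9 were called in ERY replicate 1 and iMK replicate 2 only. Mrpl12 (of the stalk that binds translation factors), Mrpl17, Mrpl3, Mrpl36, Mrpl37, Mrpl44, Mrpl54, Mrps10, Mrps25 and Mrps26 were missed only in ERY replicate 2. Mrpl11, Mrpl16, Mrpl50, Mrpl52, Mrps17, Mrps22 and Mrps33 were missed only in iMK replicate 1. Mrpl24 was called only in iMK replicate 2 (2000 bp), although its H3K27ac was called in all 4 libraries (1400 and 1400 bp in ERY, 1000 and 800 bp in iMK).

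These mixed members had narrow peaks where they were called. Their H3K4me3 widths ran from 600 to 2600 bp in ERY replicate 1 (31 called, median 1000 bp) and from 1000 to 5400 bp in iMK replicate 2 (32 called, median 2000 bp). The 24 members called in ERY replicate 1 and not in ERY replicate 2 had a median width of 1000 bp and a median fold over control of 4.85 in replicate 1, against 1800 bp and 5.69 for the 53 called in both. In all genes the same split gave 1200 bp against 2000 bp. The 22 members called in iMK replicate 2 and not in iMK replicate 1 had a median of 2100 bp, against 2400 bp for the 56 called in both. H3K27ac peaks were also narrower at mixed than at shared members, with medians of 1400 and 1500 bp against 2600 and 2400 bp in ERY, and 1200 and 1400 bp against 1600 and 1800 bp in iMK. The ratio of observed to expected CpG in the RefSeq windows had a median of 0.746 in mixed and 0.852 in shared members.

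Most members had compact promoter peaks. The width of the widest peak touching a promoter had member medians of 1600, 1400, 1400 and 2200 bp in the 4 H3K4me3 lists (ERY 1, ERY 2, iMK 1, iMK 2), where all called genes had 1800, 1400, 1400 and 2600 bp. In H3K27ac the member medians were 2200, 2200, 1400 and 1600 bp, against 2800, 2600, 1800 and 2000 bp in all called genes. Members were thus narrower at the median than all called genes in the 4 H3K27ac lists and in 2 of the H3K4me3 lists, and matched them in the other 2. The authors' fold of the peak, which is relative to a control and cannot be compared between lists, had a member median between the 37.8th and the 61st percentile of all called genes of the same list. Peaks that held the principal TSS reached a median of 532 to 980 bp upstream and 708 to 1200.5 bp downstream across the 8 lists. They covered a median of 10 to 15.9% of the gene body, and between 0 and 4 members per list were covered from end to end.

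**Figure D2:**
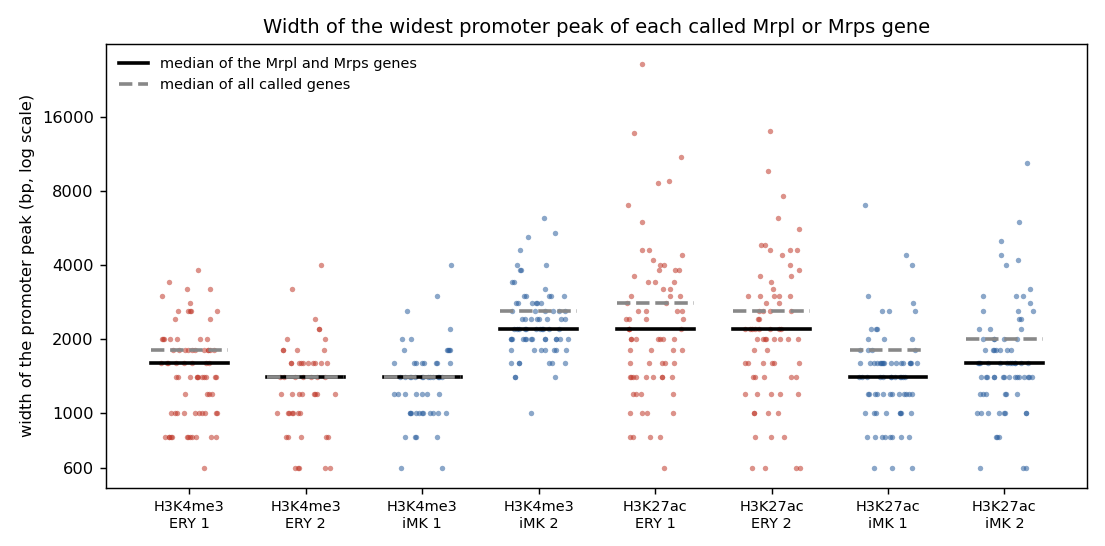
Width of the widest promoter peak (bp, log scale) for each called Mrpl or Mrps gene, 1 point per gene, in each of the 8 libraries. The solid line is the median of these genes and the dashed line the median of all called genes, which lies above the solid line in the 4 H3K27ac libraries.

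Among the 45 members called in all 8 libraries, mean width over those libraries ran from 1275 to 6950 bp. Mrps18b had the largest mean (6950 bp), followed by Mrps34 (5875 bp) and Mrpl41 (4575 bp). The mean of Mrps34 rested on 1 H3K27ac peak of 26200 bp in ERY replicate 1. Its other 7 widths were 1600 to 3800 bp, with a mean of 2971 bp, and without that library its mean lay below those of Mrpl41 (3657 bp), Mrpl48 (3343 bp) and Mrpl51 (3229 bp). Mrps18b, Mrps34 and Mrpl41 all have a protein-coding gene starting on the opposite strand within 1 kb: Ppp1r10, a regulatory subunit of protein phosphatase, Eme2, a partner of a DNA endonuclease, and Pnpla7, a lysophospholipase. The H3K4me3 peaks of Mrps18b were 3200, 4000, 4000 and 6200 bp. The narrowest were Mrps35 (1275 bp) and, with equal means of 1350 bp, Mrpl9, Mrps24 and Mrps5. Mrps35 ranged from 600 bp (H3K27ac, ERY replicate 2) to 2400 bp (H3K4me3, iMK replicate 2).

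Width was then compared between cell types over genes called in all 4 libraries of a mark, on log2 width centred on each library's median, with limma's moderated test and Benjamini-Hochberg adjustment over all genes tested. Before centring, 38 of 75 members had both ERY H3K27ac peaks wider than both iMK peaks (50.7%) and 3 the reverse (4%), while in all 7897 genes tested the shares were 49.2% and 13.1%. Without centring the median difference was 0.45 on the log2 scale for members and 0.39 for all genes. Centring took off that common offset, and the median difference became 0.09 for members and 0.02 for all genes. In H3K27ac, 6 of the 75 members were then wider in ERY, in a background of 16.4% of genes, and 3 were wider in iMK, in a background of 8.33%. Their share on this scale was thus below the background in both directions, and 66 members did not pass. At an unadjusted p under 0.05 there were 16 members (21.3%), against 3004 of all genes tested (38%). With width in bp, centred on library means, 36 members (48%) passed as wider in iMK on that scale, near the 44.9% of all genes. In ERY 4 were wider (5.33% against 11.2%). That centring put the median difference at -1225 bp for members and for all genes alike. The direction is thus relative to library means and can be opposite to the measured widths. Among the 36 were members with both measured ERY peaks wider, such as Mrpl10 (1800 bp in both ERY libraries, 1000 and 1400 bp in iMK).

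Mrps36 (start at chr13:100744659) had H3K27ac peaks of 8800 and 6200 bp in ERY and of 1200 and 1800 bp in iMK. The groups were apart by over 4000 bp, and the centred difference was 1.97 ± 0.27 (log2, SE, limma adjusted p = 0.00346). The ERY peaks ran 5458 and 4258 bp into the gene and 3341 and 1941 bp upstream, and the iMK peaks 858 and 1058 bp into it. Its H3K4me3 peaks, 1200 and 1800 bp in ERY and 800 and 1800 bp in iMK, overlapped between groups.

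Mrpl52, a large-subunit protein specific to mitochondria (start at chr14:54426909), had peaks of 4400 and 4000 bp in ERY and 1400 bp in both iMK libraries. Its difference was 1.22 ± 0.22 (limma adjusted p = 0.00967). The extra ERY width lay upstream, where peaks reached 3708 and 3308 bp in ERY and 908 and 508 bp in iMK. Mrps28, a small-subunit protein (start at chr3:8923918), had 6000 and 4800 bp in ERY and 1600 and 2200 bp in iMK, a difference of 1.15 ± 0.24 (limma adjusted p = 0.016). Here the ERY width lay inside the gene, to 4717 and 5317 bp past the start, and the wide peak of ERY replicate 2 began 518 bp inside the gene. With a window of 500 bp that library counted a separate peak of 600 bp, the difference turned to -0.35 and the call was lost (limma adjusted p = 0.815).

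Mrps18b, a small-subunit protein (start at chr17:35916389), had peaks of 13800 and 14000 bp in ERY and 4400 and 6000 bp in iMK. Its difference was 1.07 ± 0.25 (limma adjusted p = 0.0235). All 4 peaks also held the start of Ppp1r10, 807 bp away. The 4 peaks ended 788 to 988 bp into Mrps18b, and the differing length lay on the Ppp1r10 side (13011 and 13211 bp against 3611 and 5011 bp). Mrpl38, a large-subunit protein specific to mitochondria (start at chr11:116138868), had 2800 and 9600 bp in ERY and 800 and 600 bp in iMK, a difference of 2.54 ± 0.59 (limma adjusted p = 0.0223). The ERY replicates were far apart with this window. The counted peak of replicate 2 extended to the start of Fbf1 and that of replicate 1 did not. With 2.5 kb on each side of a start, the widest peaks were 18600 and 9600 bp in ERY and 2400 and 2600 bp in iMK. Mrpl38 still passed there, but its widths and the gap between ERY replicates depended on the window. Mrpl15, a large-subunit protein with bacterial relatives (start at chr1:4785739), had 3600 and 3000 bp in ERY and 1400 and 1600 bp in iMK. Its difference of 0.77 ± 0.23 stood at the threshold (limma adjusted p = 0.0499).

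Wider peaks in iMK were found at Mrpl33, Mrps14 and Mrps15. Mrpl33, a small protein of the large subunit (gene at chr5:31596935-31664384), had H3K27ac peaks of 1400 bp in both ERY libraries and 7000 and 10400 bp in iMK, a difference of -2.97 ± 0.25 (limma adjusted p = 0.000825). These peaks were not at the same start. The ERY peaks lay at the principal start (chr5:31613601-31615000) and the widest iMK peaks at annotated starts further upstream (chr5:31596401-31603400 and chr5:31596001-31606400). At the principal start alone the iMK peaks were 3400 and 4400 bp, and the difference stayed negative and past the threshold, at -1.77 ± 0.25 (limma adjusted p = 0.00332). The 2 small-subunit genes had short ERY peaks. Mrps14 (start at chr1:160195215) had 600 bp in both ERY libraries and 1000 and 1600 bp in iMK, a difference of -1.44 ± 0.36 (limma adjusted p = 0.0303). Mrps15 (start at chr4:126046925) had 800 and 600 bp in ERY and 1600 and 1200 bp in iMK, a difference of -1.36 ± 0.35 (limma adjusted p = 0.033). Both ERY peaks of Mrps14 began 14 bp upstream of its start, where those of iMK began 414 and 814 bp upstream.

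Mrps34, a small-subunit protein specific to mitochondria, had the third-ranked positive difference without passing. Its H3K27ac peak was 26200 bp in ERY replicate 1, where it spanned the starts of Eme2, Mapk8ip3, Nme3, Nubp2 and Spsb3, and 3800 bp in ERY replicate 2, against 3000 and 2600 bp in iMK. The ERY replicates were thus far apart, and the difference was 1.47 ± 0.77 (limma adjusted p = 0.215). It depended on the window: with 2.5 kb on each side of a start, ERY replicate 2 also counted a peak of 22600 bp, and Mrps34 passed at 2.76 ± 0.25 (limma adjusted p = 0.000698). With 1 kb it was 0.13 ± 0.26 without ERY replicate 1 (limma adjusted p = 0.744) and 2.81 ± 0.27 without ERY replicate 2 (limma adjusted p = 0.0174). Of the members lowest in the difference after the 3 that passed, Mrps26 (1600 and 800 bp in ERY, 1600 bp in both iMK libraries), Mrps35 (1600 and 600 bp against 1600 and 1200 bp) and Mrps22 (1000 and 1200 bp against 1000 and 1600 bp) had overlapping or touching groups and did not pass (limma adjusted p = 0.128 to 0.252). Leaving out 1 library at a time gave 2 to 6 members wider in ERY and 1 wider in iMK. Mrps36 and Mrpl33 passed in all 4 of these fits, Mrpl52 in 3 of them, lost without iMK replicate 2 (limma adjusted p = 0.0665), and each other member was lost in at least 3.

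**Figure D3:**
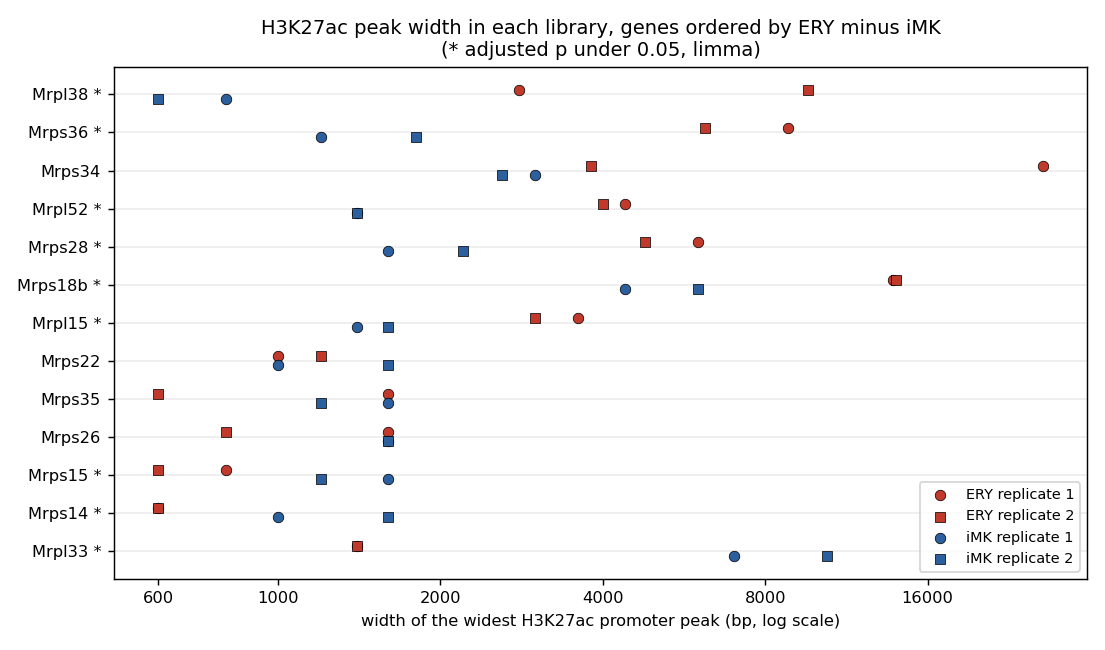
Width of the widest H3K27ac promoter peak (horizontal axis, bp, log scale) in each of the 4 libraries for the 6 genes highest and the 6 lowest in the ERY minus iMK difference and all that passed limma (asterisk). The 2 ERY points of Mrps34 lie at 26200 and 3800 bp. The groups do not overlap at any gene with an asterisk. Both ERY peaks were wider than both iMK peaks at 50.7% of members tested and 49.2% of all genes tested. The reverse held at 4% and 13.1%.

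In H3K4me3, 0 of 46 members passed in either direction by limma, and neither did any of the 5398 genes tested (0%). At an unadjusted p under 0.05 there were 3 members (6.52%) and 664 of all genes tested (12.3%). Mrpl13, a large-subunit protein, had the largest positive difference, with 2600 and 2400 bp in ERY and 1000 and 1800 bp in iMK (1.14 ± 0.32, limma adjusted p = 0.229). Mrps31 (2000 and 2200 bp against 1000 and 2000 bp) followed at 0.81 ± 0.34, ahead of Mrps12, Mrpl15, Mrps36 and Mrpl57 (0.51 to 0.67). Mrps16, of the small subunit, had the largest negative difference (1200 and 1000 bp in ERY, 1800 and 2800 bp in iMK, -0.79 ± 0.32), ahead of Mrpl28, Mrps6, Mrps7, Mrpl10 and Mrps30 (-0.76 to -0.58). The groups were apart at Mrpl13 and Mrps16 and touched at 2000 bp at Mrps31. Of the 46 members, 1 had both ERY peaks wider than both iMK peaks (2.17%) and 6 the reverse (13%), close to the 2.78% and 14.1% of all genes tested.

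The members were next grouped by subunit and by origin. In H3K27ac, 50 of 51 large-subunit genes and 24 of 26 small-subunit genes were shared, a class of 36% of all genes. In H3K4me3 the numbers were 29 of 51 (56.9%) and 16 of 26 (61.5%), where 24.6% of all genes were shared. Large-subunit genes had 3 of the ERY-wider and 1 of the iMK-wider H3K27ac peaks among 50 tested, and small-subunit genes 2 and 2 among 24, with Mrps36 in neither group. Origin followed a fixed list, which put Mrps18c with bacterial relatives and Mrpl47, Mrps18a and Mrps18b with those specific to mitochondria. The assignments of that list were not tested, and the counts by origin depend on them. Members listed with bacterial relatives were shared in H3K27ac at 41 of 44 loci, and those listed as specific to mitochondria at all 33 (36% of all genes). The 3 members not shared in H3K27ac (Mrps2, Mrpl23 and Mrps6) and the 3 wider in iMK were all listed with bacterial relatives. Of 41 tested in that larger group, 2 were wider in ERY and 3 in iMK, against 3 and 0 of 33 in the other. Over all genes tested, 16.4% were wider in ERY and 8.33% in iMK. The group medians of the H3K27ac difference lay between -0.09 (small subunit) and 0.15 (large subunit), where the median of all genes was 0.02. No test between groups of genes was made.

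Many members shared a promoter region with another gene. A protein-coding gene started on the opposite strand within 1 kb of 21 of the 78 members (26.9%), at a median distance of 81 bp, against 1530 of all 21938 genes (6.97%), at a median of 169.5 bp. The partners included other genes of mitochondrial gene expression: Twnk, the helicase of mitochondrial DNA, at Mrpl43 (116 bp), and Sars2, the mitochondrial seryl-tRNA synthetase, at Mrps12 (182 bp). Fau, which encodes a cytosolic ribosomal protein in fusion with a ubiquitin-like protein, faced Mrpl49 (59 bp), Tcp1, a subunit of the cytosolic chaperonin, faced Mrpl18 (37 bp), and Psma2, a proteasome subunit, faced Mrpl32 (75 bp).

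At the Mrpl46 and Mrps11 pair, whose sequence is shown above, each peak covered both starts. Its width was 1800, 1200, 1400 and 1600 bp in H3K4me3 (ERY 1, ERY 2, iMK 1, iMK 2) and 4600, 2200, 1800 and 2000 bp in H3K27ac. Both genes are thus described by the same peaks, and a peak between divergent starts cannot be assigned to either one. Of the 21 members with a divergent start, 19 were shared in H3K4me3 (90.5%) and all 21 in H3K27ac. Of the other 57, 27 (47.4%) and 54 (94.7%) were. In all 1530 genes with a divergent start the shares were 69.7% and 84.5%, so the higher H3K4me3 share at divergent starts was seen outside these genes too. The H3K27ac medians were 3000 and 2400 bp in ERY and 1600 and 2000 bp in iMK at members with a divergent start, and 2000 and 2000 bp and 1400 and 1400 bp at the others.

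Promoter sequence was described in the 69 members matched by symbol to a RefSeq window of 250 bases before to 50 after the start. The ratio of observed to expected CpG had a median of 0.818 in members, 0.598 in all 16522 windows and 0.849 in windows of genes called in all 8 libraries, with a GC content of 58.3%, 57% and 62.3%. A CCGGAAG match, the core bound by ETS factors such as GABP, stood in 25 member windows (36.2%, against 12.3% of all). An AAGATGG match (YY1) stood in 13 (18.8% against 6.43%), CGCATGCG (NRF1) in 7 (10.1% against 2.66%) and AGATAA, the GATA-factor motif, in 11 (15.9% against 9.72%). NRF1, GABP and YY1 are known as regulators of nuclear genes for mitochondrial proteins. Near the shares of all windows were GGGCGG (49.3% against 48%), CCAAT (39.1% against 38.7%), CACGTG (7.25% against 8.11%) and TGACGTCA (2.9% against 2.43%). TATAAA stood in 4 windows (5.8% against 12.9%) and CTCGCGAG in 2 (2.9% against 1.33%). Among members, the CCGGAAG match stood in 15 of the 40 windows shared in H3K4me3 and in 10 of the 29 mixed ones.

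**Figure D4:**
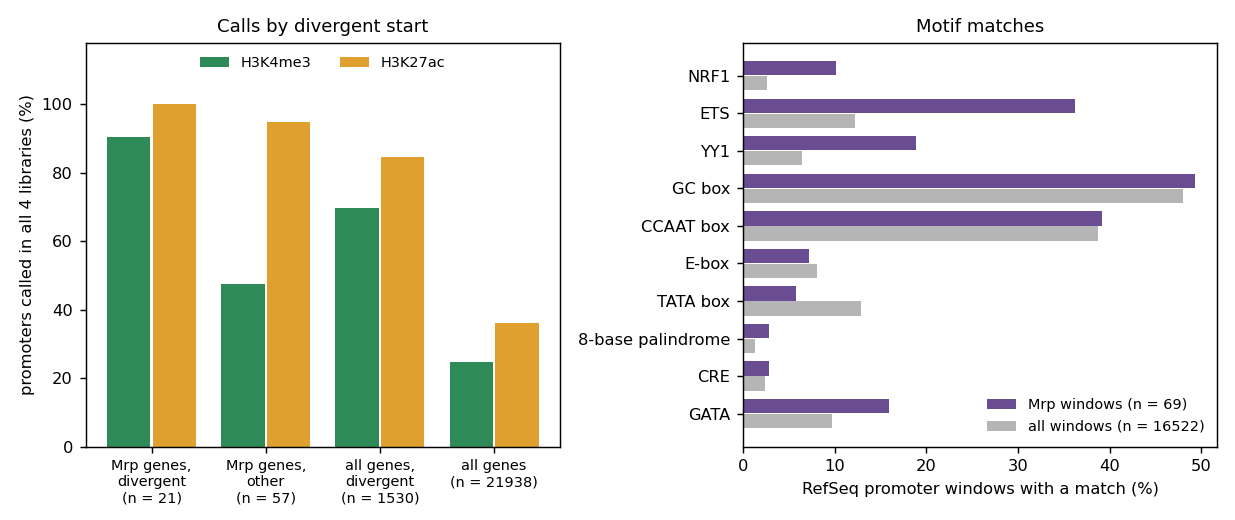
Left, percent of promoters called in all 4 libraries of a mark (vertical axis) for Mrpl and Mrps genes (Mrp) with and without a divergent protein-coding start within 1 kb and for all genes, green H3K4me3 and orange H3K27ac. Right, percent of RefSeq windows with a match to each motif (horizontal axis) in 69 Mrp windows (purple) and all 16522 windows (grey), where ETS stands at 36.2% against 12.3%.

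Other genes of mitochondrial translation were also mostly shared in H3K27ac, a class of 36% of all genes. The 5 mitoribosome subunits with other symbols (Dap3, Chchd1, Ptcd3, Aurkaip1 and Gadd45gip1) were all shared in H3K27ac, as were all 12 translation factors and all 11 genes of mitochondrial DNA expression, 22 of 24 assembly and rRNA factors and 14 of 17 mitochondrial tRNA synthetases. Their H3K4me3 was shared at 4 of 5, 7 of 12, 7 of 11, 13 of 24 and 11 of 17 (24.6% of all genes). H3K27ac was wider in ERY at 16.4% of all genes tested. In these lists it was so at 1 of 5 subunits, 0 of 12 translation factors and 3 of 22 tested assembly factors. The same held at 2 of 14 tested synthetases and 1 of 11 genes of mitochondrial DNA expression. H3K27ac was wider in iMK at 1 gene of these lists, where 8.33% of all genes tested were. That gene was Tufm, the elongation factor that brings aminoacyl-tRNA to the mitochondrial ribosome (1200 and 1400 bp in ERY, 1800 and 2000 bp in iMK, -0.91 ± 0.26, limma adjusted p = 0.0444).

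The genes of these lists with wider H3K27ac peaks in ERY were Lrpprc, Eral1, Gadd45gip1, Mrm1, Nars2, Mpv17l2 and Hars2. Lrpprc, which stabilises mitochondrial mRNAs, had 22000 and 24200 bp in ERY and 1600 and 2800 bp in iMK (3.08 ± 0.30, limma adjusted p = 0.0011). Eral1, an assembly factor of the small subunit, had 18800 and 18200 bp against 1400 bp in both iMK libraries (3.36 ± 0.22, limma adjusted p = 0.000629). Gadd45gip1, a large-subunit protein, had 12800 and 9400 bp against 1400 bp in both (2.61 ± 0.24, limma adjusted p = 0.000966). Mrm1, of the rRNA factors, had 15600 and 13200 bp against 2000 and 2200 bp (2.41 ± 0.23, limma adjusted p = 0.000986). Nars2, a synthetase, had 13800 and 13000 bp against 1200 and 2200 bp (2.68 ± 0.30, limma adjusted p = 0.00165). Mpv17l2 and Hars2 had shorter ERY peaks, of 6400 and 5800 bp and of 5600 and 4800 bp. Of 9 nuclear regulators, 6 were shared in both marks, including Nrf1, Gabpa, Gabpb1 and Yy1. Of those 6, only Pprc1 was wider in ERY in H3K27ac (9000 and 7000 bp against 1600 and 1800 bp, 1.86 ± 0.23, limma adjusted p = 0.00238). Esrra and Ppargc1b were iMK-only in both marks, and Ppargc1a was iMK-only in H3K4me3 and without H3K27ac calls. The iMK-only class held 4.89% of all genes in H3K4me3 and 8.56% in H3K27ac. Of the 93 cytosolic ribosomal protein genes, 81 were shared in H3K27ac and 64 in H3K4me3, where 36% and 24.6% of all genes were. A further 10 had no call in either mark, while 47.2% of all genes had none in H3K27ac and 46.3% none in H3K4me3. Of those 81, H3K27ac was wider in ERY at 4 and in iMK at 2, again below the background shares given above.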

How the data were processed

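Peak lists of 8 ChIP-seq libraries, 2 for each mark and cell type, were analysed. The 10 input libraries (4 ERY, 6 iMK) were not used here. The authors called peaks in each library separately. Tools named in the submitters' processing notes, without roles, are SICER 1.1 and Bowtie 1.0.0, with build mm10. The study's general methods name Bowtie and MACS, and peak edges in the lists are multiples of 200 bp. Deposited with every peak are its fold (a ratio to control), its p-value and its q-value, which never reached 0.01. Joined windows can make 1 peak span several genes, and list length depends on library depth, which the lists do not give, so no interval that needs it is given. Groups came from the submitters' labels.

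Here, peaks were matched to promoters (TSS with 1 kb on each side, at least 1 bp) of the 21938 protein-coding genes of GENCODE vM21 outside the mitochondrial chromosome. Log2 width of the widest peak, centred on the library median over genes called in all 4 libraries of a mark, was tested with limma 3.58.1 (R 4.3.3, trend, no covariates) with Benjamini-Hochberg adjustment over all genes tested, and a gene passed at an adjusted p under 0.05. The difference given is ERY minus iMK with limma's SE. The limma step was tested on simulated data. With 2 libraries against 2, the smallest two-sided p of an exact test is 0.333, and no such test was run. RefSeq windows were matched by symbol, using the first listed. The principal start is that of the principal annotated transcript. Counts, widths and motif shares are descriptions with no test.

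Named members were those not shared in a mark, the 6 highest and 6 lowest differences per mark, all that passed, member pairs with divergent starts, and the 3 widest and 3 narrowest. The other genes named come from lists of pathway and marker genes or are neighbours of members. The members, lists and rules were chosen with earlier results of these data known. Alternatives covered centring, scale, window, overlap, transcripts, list length, q-value, trend and leaving out each library. The choice of a single start per gene was added after seeing the data.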

Additional observations from a re-analysis of the deposited data

How the results depend on the processing

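In H3K27ac, members wider in ERY numbered 4 to 8 under the alternatives without a library left out, except 3 with the RefSeq start only (66 members tested, an alternative chosen after seeing the data), and 2 to 6 without 1 library, against 6. Members wider in iMK numbered 3 or 4, except 1 without centring, 36 with width in bp centred on library means (which puts the median of all genes at -1225 bp, and where the members' 48% exceeds the 44.9% of all genes) and 1 without any 1 of the libraries. In H3K4me3 the count stayed at 0 in both directions under every alternative run, while over all genes it moved from 0 and 0 to as many as 37 wider in ERY (summed peaks) and 26 wider in iMK (same number of peaks per list). Differences with width in bp are relative to library means, and some of the 36 members had wider measured peaks in ERY. Mrpl15 turned to -25.3 bp with width in bp and Mrps28 to -0.35 on the log2 scale with a 500 bp window. Mrps34 gained a call with a 2.5 kb window (2.76 on the log2 scale). Mrpl38, Mrps14 and Mrps15 lost their call without centring, Mrpl38 and Mrpl52 with width in bp, and Mrpl15 with summed peaks, a 500 bp window, protein-coding transcripts only or no trend. With the same number of peaks per list, 1 member was ERY-only in H3K4me3 instead of 0 (Mrpl11, 1.28% against 2.48% of all genes). In that setting 2 were iMK-only instead of 0 (Mrpl37 and Mrps26, 2.56% against 4.26%). Without 1 library, H3K4me3 ERY-only members ranged from 0 to 7 (the 7, or 8.97%, without iMK replicate 2, against 4.03% of all genes), iMK-only from 0 to 10 (the 10, or 12.8%, without ERY replicate 1, against 10.7%) and shared from 46 to 56, and in H3K27ac iMK-only from 1 to 3 (the 3 without ERY replicate 1) and shared from 75 to 77. The causes were not tested. The lists give no read depth, and widths move in steps of 200 bp. No paired analysis was possible because the labels number no replicates.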
